A study of Homo sapiens with 8 samples.

Results

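Untreated control cells of the MCF10A-Hras line were described on their own, from 2 of the 8 libraries of a study of the RNA binding protein RBM6. MCF10A is a non-tumorigenic line of human breast epithelial cells, and here the cells also carried an H-Ras oncogene, so every sample of the study shares that background. The genotype of these cells is given as WT (control) and their treatment as untreated. The other samples were irradiated cells and cells of an RBM6 knockout clone, and they were not compared here. The cells were kept in DMEM-F12 with 5% horse serum, EGF at 20 ng/ml, cholera toxin at 100 ng/ml, insulin at 10 μg/ml and hydrocortisone, and poly(A)-selected RNA was sequenced. The libraries, named A and B, are biological replicates of 1 line in 1 medium, so the spread between them is the error of these cells in culture and not of breast tissue.

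The breast duct has an outer basal layer, which contacts the basement membrane and makes the keratins KRT5, KRT14 and KRT17, and an inner luminal layer, which makes KRT7, KRT8, KRT18 and KRT19 and, in part of its cells, the estrogen receptor. Keratins form filaments from pairs of a type I and a type II protein. Basal cells are held to laminin-332, a trimer that includes the chains LAMA3 and LAMB3, by hemidesmosomes built on the α6β4 integrin, and to one another by desmosomes and by cadherins.

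Library A held 16122346 counts on genes and library B held 18754895. Levels are given as CPM, counts scaled to a library total of 1000000, or, to compare genes with each other, as TPM, for which counts were first divided by the length of a gene's exons in GENCODE v44. Where a pair of values stands without a library name, the first is library A and the second library B. A gene was taken as expressed at 1 CPM or more in both libraries, and as at the floor with at most 3 counts in each. A count of 0 allows up to 0.186 CPM in library A and 0.160 CPM in library B, for counting error only. Expressed genes numbered 13447 of 58233, among them 11595 of 19683 protein-coding genes (58.9%), while 6108 protein-coding genes (31.0%) were at the floor. For scale, none of the 410 olfactory receptor genes, which are restricted to sensory neurons, was expressed, and 407 were at the floor. The shares of 58.9% and 31.0% are the scale for all counts of list members below.

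The libraries ranked genes nearly alike. Across the 13447 expressed genes the Spearman correlation of CPM was 0.990, with genes as the points and both libraries drawn from the same cell line, and 129 genes (0.959%) differed by more than 2-fold between libraries. A check for duplicate deposits of 1 library gave a chi-square of 10.2 per degree of freedom over 17259 genes, more than sampling noise. edgeR's common biological coefficient of variation was 0.125 over 14630 genes. Differences between the libraries went with base composition: over 8760 protein-coding genes at 10 CPM or more, the Spearman correlation of the A over B ratio with transcript GC content was -0.588. DYNLT3, a dynein light chain gene with 33.6% GC, stood at 19.8 and 7.89 CPM, and GABPA, an ETS family transcription factor, at 18.0 and 7.57. NEK7, a kinase, was also higher in A, at 16.3 and 7.14 CPM. In the other direction, KIAA0513 with 56.5% GC stood at 8.50 and 17.1 CPM, the bradykinin receptor gene BDKRB2 at 7.57 and 13.3 and the calcium-binding protein gene S100A4 at 34.9 and 60.3. These are the 3 genes with the highest and the 3 with the lowest ratio, and only 12 of the 8760 genes differed by more than 2-fold. The part of GC content in these differences was not tested.

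Mitochondrial genes, metallothionein, thymosin, a hair keratin and S100 proteins headed the transcriptome. Of the 20 genes with the highest mean TPM, 12 were encoded by the mitochondrial genome, led by MT-CO2, a subunit of cytochrome c oxidase, at 55704 and 54484 TPM. The 37 mitochondrial genes took 8.40% and 8.21% of all counts, and 84 cytosolic ribosomal protein genes took 8.29% and 9.02%. The most abundant nuclear gene per length was MT2A, a metallothionein that binds zinc and copper (ENSG00000125148, chromosome 16, 56608584 to 56609497 in GRCh38), at 29047 and 33099 TPM. Its range overlapped that of MT-ND4, at 32703 and 29244, so their order is not fixed by these data. Next among nuclear genes with the union of exons as length, TMSB10, a β-thymosin that binds actin monomers, was at 16333 and 16272 TPM and KRT81, a type II hair keratin, at 13918 and 14806. S100A6 and S100A2, small calcium-binding proteins of which S100A2 is a basal epithelial marker, stood at 9385 and 12947 and at 8069.7 and 9938 TPM, and their ranges overlapped. The order depended on the length used: with the Ensembl canonical transcript the mean was 42251 TPM for MT2A, 32879.8 for MT-CO2, 14895 for S100A6, 9729 for TMSB10 and 8569 for KRT81. RPS12, a ribosomal protein gene, stood at 5949 and 6944 TPM, FTL, the ferritin light chain, at 6159 and 6327, and AREG, the EGF receptor ligand amphiregulin, at 5214 and 5474.

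By counts alone, without division by length, 12 of those 20 genes were again among the top 20. MT-CO1, with 247936 and 286917 counts, and MT-ND4, with 248357 and 263726, headed the list in an order that differed between the libraries. The genes that entered were EEF1A1, EEF2, ACTB, LAMB3, TGFBI, PLEC, RPS2 and MALAT1. Not all have long transcripts: the canonical transcripts of RPS2 and ACTB have 945 and 1812 bases, against 2388 and 4405 in the union of exons. EEF1A1, a translation elongation factor, had 8845 and 9003 CPM and EEF2, which moves the ribosome along the mRNA, had 4733 and 4989. LAMB3, the β3 chain of laminin-332, had 7599.9 and 9484 CPM, PLEC, which encodes the cytolinker plectin of hemidesmosomes, had 3834 and 4333, and TGFBI, a secreted matrix protein, had 4818 and 4473. The 10 most abundant genes held 9.92% of counts in library A and 10.2% in library B, and 552 and 500 genes held 50% of counts. Among protein-coding genes 92 had a mean of 1000 TPM or more, 979 lay from 100 to 1000, and 5749 from 10 to 100.

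The 3 markers given for the cells were all expressed. KRT5 (ENSG00000186081, chromosome 12, 52514575 to 52520530), a type II basal keratin, stood at 768 and 859.6 TPM. KRT17 (ENSG00000128422, chromosome 17, 41619442 to 41624842), a type I keratin of basal and wound-edge cells, stood at 244 and 311 TPM. KRT14 (ENSG00000186847, chromosome 17, 41582279 to 41586895), the usual type I partner of KRT5, stood at 55.7 and 79.5 TPM. The basal marker genes were thus present in both libraries, and KRT5 exceeded KRT14 by 13.8 and 10.8 fold per length. In CPM the gap was wider, with KRT5 at 1085 and 1239.7 and KRT14 at 42.9 and 62.5.

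None of the 3 led the family. KRT81 (ENSG00000205426, chromosome 12, 52285913 to 52291534), whose protein is known from the hair cortex, held 76.5% and 76.8% of the summed TPM of the 55 keratin genes, and stood 8.78 and 9.02 fold above KRT7, the next. Per read, without length, KRT81 was 4.29 fold above KRT7, and with the length of the Ensembl canonical transcript 3.62 fold, so it led on each scale. Its neighbor KRT86, a close relative on the opposite strand, was at 30.8 and 35.0 TPM and KRT83 at 0.968 and 0.407. These genes are alike in sequence and reads may have been shared among them, as among KRT6A, KRT6B and KRT6C. Of 17 hair keratin genes 2 were expressed, KRT81 and KRT86, and 13 were at the floor.

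KRT7, a type II keratin of simple and luminal epithelium, stood at 1585 and 1641 TPM. KRT6A, a keratin of activated and wounded epithelium, stood at 1041 and 969.8 and was followed by KRT5. KRT18, a type I luminal keratin, stood at 345 and 369 TPM, above its type II partner KRT8 at 137 and 136. With the length of the canonical transcript KRT5 came out at 897 TPM on the mean and KRT6A at 761, so the order of this pair depends on length. Luminal and basal keratins were interleaved in the order of levels, and down to KRT14 no neighbors overlapped. KRT86 and KRT10, at 32.0 and 25.9 TPM, overlapped. KRT80 stood at 16.6 and 16.5 TPM, KRT6B at 12.8 and 16.1, KRT16, the partner of KRT6A, at 3.81 and 7.09 and KRT15, a basal keratin, at 2.98 and 2.25. KRT19, a small luminal keratin, had 1 and 0 counts and was at the floor. In all, 14 of 55 keratin genes were expressed, 37 were at the floor and 30 had no count in either library.

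Type II keratins exceeded type I keratins although the proteins assemble in pairs. The 26 type II genes summed to 17512 TPM in library A and 18481 in library B, against 685 and 797 for the 29 type I genes, or 25.6 and 23.2 fold more. Without KRT81 the type II sum was still 5.25 and 4.61 fold the type I sum. The highest type I gene was KRT18. Of the type I genes 6 were expressed and 21 were at the floor, and of the type II genes 8 and 16.

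Promoters of keratin genes, most of them of keratins not expressed here, stood apart in sequence from those of most expressed genes. The RefSeq table of promoters (GRCh38.p14) covers 250 bases before to 50 after the start of transcription. In it 15277 protein-coding genes of the count table had an entry, 34 of them keratins, among which KRT5, KRT8 and KRT10 were expressed. The other expressed keratins, KRT81 and KRT7 among them, had no usable entry. The motif TATAA was read on the strand of the gene, with its first base 40 to 20 bases before the start. It was in 20 of 34 (58.8%) of the keratin promoters, and in 873 of 15277 (5.71%) of all. Of the 3 expressed keratins 1 (33.3%) held it, and of 13 expressed S100 genes 5 (38.5%). The motif was in 249 of 9491 (2.62%) of promoters of expressed genes and in 522 of 4318 (12.1%) of those of genes at the floor. On the other hand, it was in 63 of 851 (7.40%) of promoters of genes at 100 TPM or more. The median number of CG pairs in the 300 bases was 27 for expressed genes, 7 for genes at the floor and 2 for keratins. A match of letters describes the window and is not a site of binding.

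The 100 bases before the start are printed 5′ to 3′ for keratins in each state and for abundant genes that do or do not hold the motif, with TATAA in capitals wherever it occurs on the strand of the gene. KRT5 (chr12:52520395-52520494, minus strand) and KRT10 (chr17:40822615-40822714, minus strand) were expressed, and KRT2 (chr12:52652212-52652311, minus strand) and KRT4 (chr12:52814117-52814216, minus strand) were at 0 counts in both libraries. TMSB10 (chr2:84905556-84905655, plus strand), MT2A (chr16:56608484-56608583, plus strand) and LAMB3 (chr1:209652426-209652525, minus strand) were among the most abundant nuclear genes.
KRT5: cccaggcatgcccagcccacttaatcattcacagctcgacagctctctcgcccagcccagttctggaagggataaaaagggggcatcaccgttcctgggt
KRT10: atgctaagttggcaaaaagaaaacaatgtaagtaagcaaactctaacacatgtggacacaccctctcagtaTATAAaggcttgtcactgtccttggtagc
KRT2: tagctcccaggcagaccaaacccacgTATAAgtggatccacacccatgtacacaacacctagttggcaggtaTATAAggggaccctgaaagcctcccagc
KRT4: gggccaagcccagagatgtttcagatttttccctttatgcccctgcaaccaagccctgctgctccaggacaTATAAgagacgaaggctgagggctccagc
TMSB10: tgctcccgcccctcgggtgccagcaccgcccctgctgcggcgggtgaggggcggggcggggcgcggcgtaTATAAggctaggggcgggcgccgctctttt
MT2A: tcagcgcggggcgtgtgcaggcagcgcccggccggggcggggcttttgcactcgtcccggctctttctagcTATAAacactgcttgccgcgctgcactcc
LAMB3: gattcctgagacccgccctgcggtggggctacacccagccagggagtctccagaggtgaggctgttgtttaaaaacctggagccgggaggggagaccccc
The motif began 29 bases before the start in KRT10, KRT4 and MT2A, 30 in TMSB10 and 28 in KRT2, and was absent from the printed bases of KRT5 and LAMB3. Only the exact letters TATAA were sought, and near matches were not counted. The windows of MT2A and TMSB10 held 37 and 35 CG pairs in their 300 bases, against 7 for KRT5 and 1 for KRT10.

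Every gene of the basal list was expressed, most at high levels, beside part of the luminal list. All 18 basal genes passed 1 CPM in both libraries, against 58.9% of all protein-coding genes. Their median was 149 TPM, where the median of all expressed protein-coding genes was 14.0 TPM. The list holds KRT5, KRT14 and KRT17 and was chosen with earlier results of these data known. Its count is therefore no independent evidence of cell type. SFN, the epithelial 14-3-3σ protein, stood at 2244 and 2382 TPM, and COL17A1, a transmembrane collagen of hemidesmosomes, at 157 and 165. TP63, the transcription factor that marks basal cells, was at 7.59 and 7.11 TPM, the second lowest of the list above DST, a cytolinker also known as BPAG1, at 5.20 and 3.98. The list was thus spread over more than 3 orders of magnitude, from S100A2 to DST.

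Of the luminal list, 10 of 20 genes (50%) were expressed and 7 were at the floor. These shares lie near those of all protein-coding genes, 58.9% and 31.0%. Beside its keratins it held XBP1, a factor of secretory cells, at 87.3 and 84.3 TPM, GATA3, a luminal transcription factor, at 15.2 and 13.9, and FOXA1, which opens chromatin for the estrogen receptor, at 3.37 and 2.91. The hormone receptors were at or near 0: ESR1, the estrogen receptor, had 2 and 5 counts and PGR, the progesterone receptor, had 0 and 0. ELF5 and KIT, markers of luminal progenitors, and TFF1, an estrogen target, had no count in either library. Luminal keratins were thus present with hormone receptor transcripts at or near 0. Among 7 milk genes only XDH, xanthine dehydrogenase, which is not specific to milk, was expressed, at 14.3 and 13.9 TPM, and the caseins CSN1S1, CSN2 and CSN3 had no counts.

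The contractile genes of myoepithelium were mostly low. SMTN, smoothelin, was at 95.8 and 99.3 TPM, while ACTA2, smooth muscle actin, was at 4.58 and 4.37 and TAGLN, transgelin, at 3.77 and 3.69. CNN1, calponin, with 0 and 3 counts, and ACTG2, enteric actin, with 1 and 1, were at the floor. Basal keratins thus came with little message for the contractile apparatus that marks myoepithelial cells.

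Epithelial and mesenchymal genes were found together. VIM, the intermediate filament of mesenchymal cells, was at 555 and 495 TPM, FN1, fibronectin, at 179 and 169, and SNAI2, a repressor of epithelial genes that basal cells also express, at 123 and 106. TWIST1 was at 40.6 and 36.2 TPM and TWIST2, a related factor, at 42.5 and 43.7. The related repressors SNAI1, at 3.19 and 3.67 TPM, and ZEB1, at 4.20 and 1.61, were much lower, and the libraries disagreed on ZEB1. CDH11, a mesenchymal cadherin, had no count, and PRRX1, a factor of connective tissue, had 0 and 1. Of the 14 mesenchymal genes 11 (78.6%) were expressed, against 58.9% of all protein-coding genes, with a median of 8.75 TPM.

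On the epithelial side, ST14, the membrane protease matriptase, was at 86.3 and 93.4 TPM, EPCAM, an epithelial adhesion protein, at 26.1 and 31.3, and the splicing factors ESRP1 and ESRP2 at 28.4 and 24.5 and at 13.4 and 14.7. CDH1, E-cadherin, was at 7.88 and 10.4 TPM. GRHL2, a factor that keeps cells epithelial, had no count and OVOL1 had 1 and 0, while its relative OVOL2 was at 3.87 and 5.55 TPM. In this list 10 of 14 genes (71.4%) were expressed, against 58.9% of all protein-coding genes, with a median of 6.05 TPM. VIM exceeded CDH1 by 70.4 and 47.5 fold per length, and by 109 fold with the canonical transcript length.

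Genes of squamous differentiation and of unrelated tissues were mostly at the floor. Of the 15 squamous genes, KRT10, CNFN and TGM1 were expressed, while LORICRIN, KRT1, SPRR3 and DSG1 had no count. The defining markers CDH5 of endothelium, CD3E and LYZ of blood cells, ADIPOQ of fat, HBB of red cells and SOX10 of neural crest also had no count, and PTPRC, the pan-leukocyte marker, had 2 and 0. The summed levels were 3.82 and 2.81 TPM for 9 endothelial genes, 0.666 and 0.599 for 6 adipocyte genes, 2.22 and 1.62 for 10 neural genes and 0.0886 and 0.366 for 6 erythroid genes. None of the adipocyte and erythroid genes was expressed, 2 of the endothelial genes and 2 of the neural genes were. Other lists summed to more, and each owed most of its sum to 1 gene. The 13 immune genes, of which 3 were expressed, summed to 24.2 and 35.0 TPM, of which CD14, a co-receptor for bacterial lipopolysaccharide, made 89.2% and 93.6%. The 7 hepatocyte genes, of which 1 was expressed, summed to 71.6 and 73.5 TPM, of which SERPINA1, α1-antitrypsin, made 99.0% and 99.6%, while ALB, albumin, had 5 and 3 counts. The 10 fibroblast genes, of which 4 were expressed, summed to 86.4 and 74.0 TPM, led by PDPN, a membrane glycoprotein that basal epithelium also makes, at 62.5 and 52.6 TPM. DCN, the matrix proteoglycan decorin, was at 15.9 and 14.7, while PDGFRA had 2 and 1 counts and COL3A1 1 and 0. In RNA from bulk cells, few cells with a strong message and many with a weak one cannot be told apart.

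**Figure D1:**
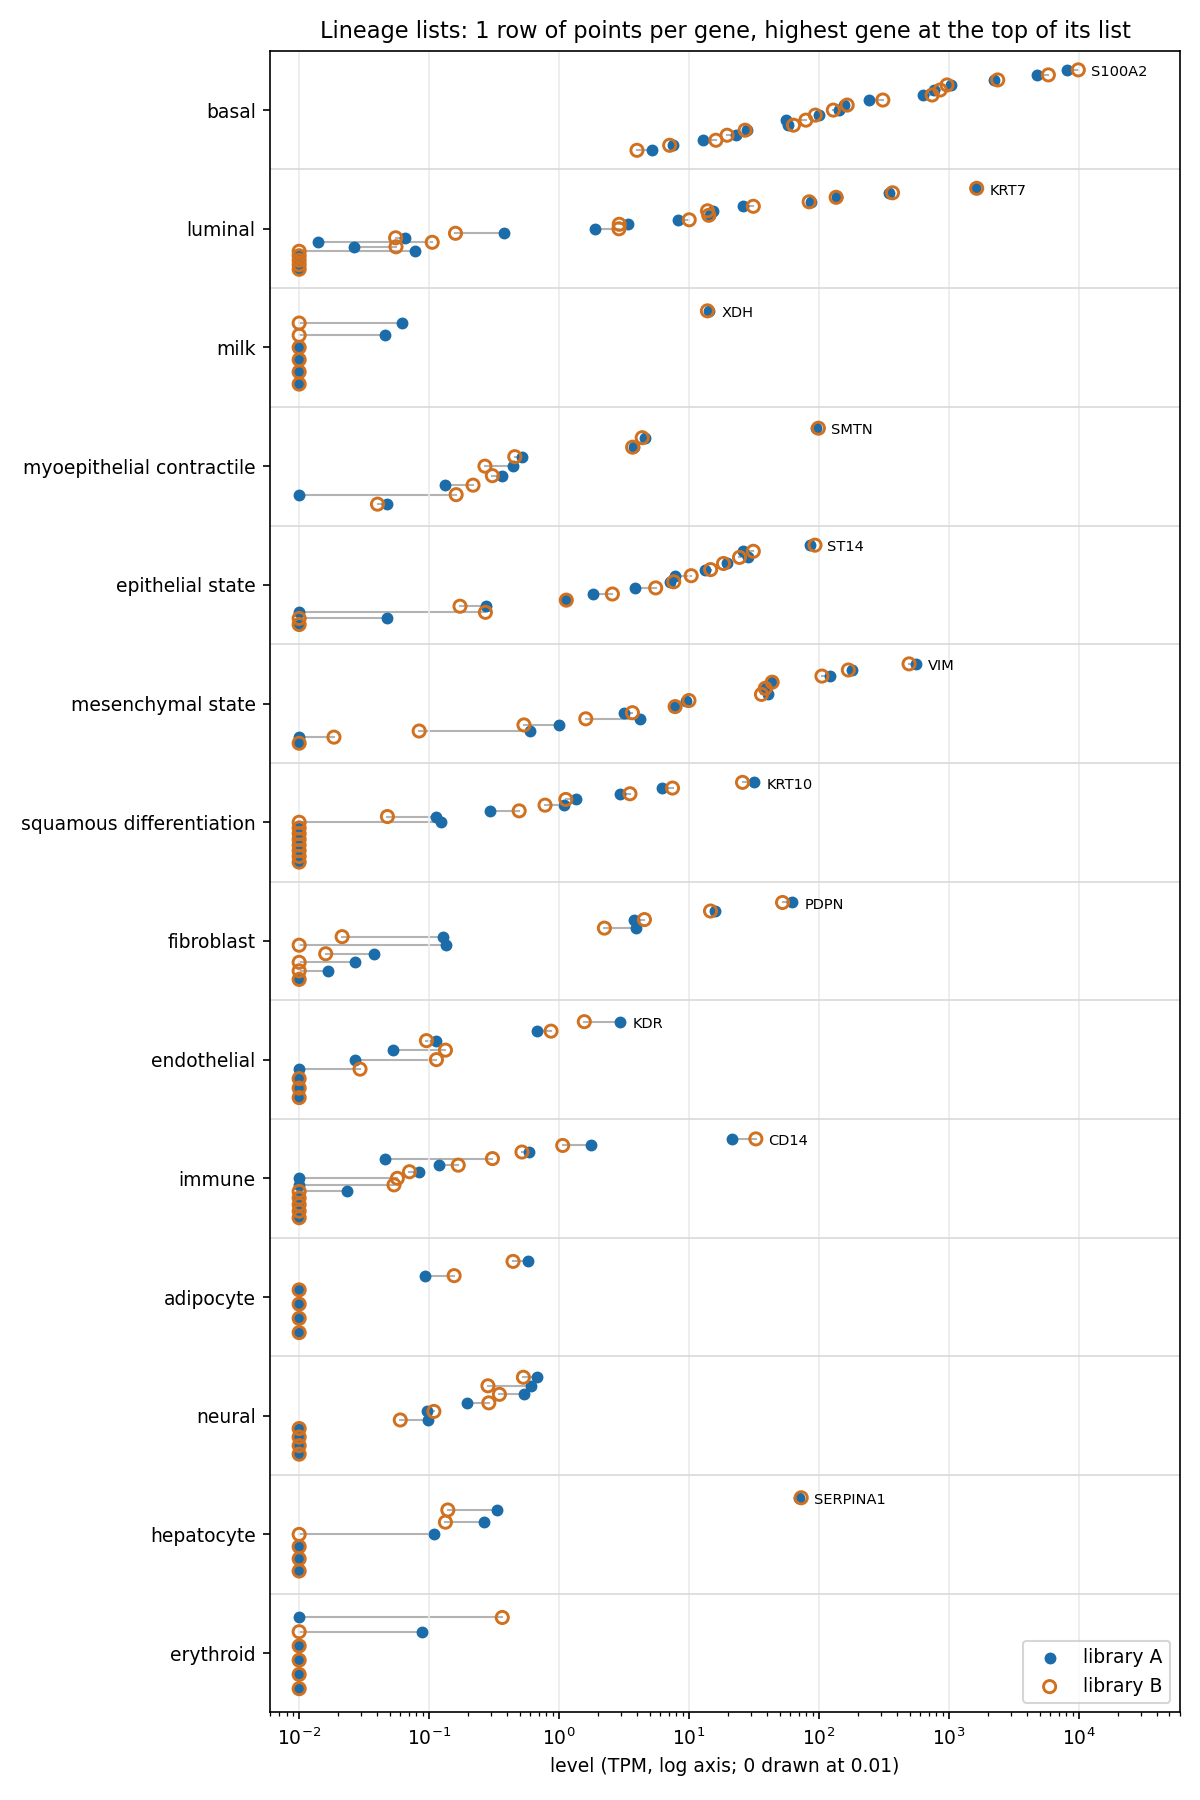
Level of the genes of the 14 lineage lists, with 2 genes left out and 1 row of points per gene, on a log axis with 0 drawn at 0.01 TPM; the highest gene of each list is named where it reaches 1 TPM. The basal genes all lie at 3.98 TPM or more, the luminal list splits into expressed genes and genes at the left edge, and SERPINA1 and CD14 lie alone to the right of their lists.

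Adhesion genes were dominated by laminin-332 and the hemidesmosome. All 9 genes of the hemidesmosome list were expressed, with a median of 257 TPM. Chains of laminin-332 assemble in equal numbers, and LAMB3 and LAMA3 were far from equal in message. LAMB3 (ENSG00000196878, chromosome 1, 209614870 to 209652425) was at 4784 and 5848 TPM and LAMA3 at 144 and 129. LAMB3 thus exceeded LAMA3 by 33.2 and 45.2 fold per length, and by 12.5 fold in CPM. The size of this gap rests on the length used, since with the median transcript length LAMB3 was at 2142 and LAMA3 at 372 TPM. LAMA5, LAMB1, LAMB2 and LAMC1, chains of the laminins of mature basement membranes, lay between 58.6 and 152 TPM. The ranges of LAMC1, LAMA5, LAMB2 and LAMA3 overlapped from one to the next. LAMA4 and LAMC3 were at the floor.

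ITGB4, the β4 integrin subunit of the hemidesmosome, was at 633 and 745 TPM, overlapping PLEC at 660.1 and 731. Its only partner, ITGA6, was at 101 and 93.9, so the β4 message exceeded the α6 message by 6.26 and 7.93 fold. Among the other α subunits, ITGA5, the fibronectin receptor, was at 463 and 532 TPM and ITGA3, a laminin receptor, at 435 and 443. ITGB1, the β subunit that both require, was lower, at 99.3 and 78.9 TPM. ITGB6, a subunit of a receptor that activates TGF-β, stood at 17.4 and 11.3 TPM. ITGB2, the β subunit of leukocyte integrins, was expressed at 7.21 and 6.32 TPM. Of its α partners, ITGAX was expressed at 1.49 and 1.75 TPM and ITGAL, ITGAM and ITGAD were at the floor. Of the α genes 11 of 18 (61.1%) and of the β genes 6 of 8 (75%) were expressed, against 58.9% of all protein-coding genes.

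Desmosome genes formed a partial set. PERP, a tetraspan protein, was at 147 and 141 TPM, PKP3, plakophilin 3, at 122 and 127, and JUP, plakoglobin, at 105 and 117. The cadherins DSG2, at 40.9 and 29.4 TPM, DSG3, at 22.9 and 19.7, DSC3, at 16.0 and 13.7, and DSC2, at 5.21 and 4.00, were expressed. DSG1, DSC1, DSG4 and PKP1, which belong to the upper layers of stratified epithelium or to hair, had no count in either library. DSP, desmoplakin, which ties desmosomes to keratin, was at 34.8 and 29.4 TPM and overlapped DSG2. The isoforms of the basal layer were present and those of differentiated layers absent at this depth.

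CDH3, P-cadherin, known from basal cells, was the highest of 23 cadherin genes, at 57.9 and 63.8 TPM. It exceeded CDH1 by 7.35 and 6.13 fold. CDH2, N-cadherin, at 7.72 and 7.83 TPM, was within 1.5-fold of CDH1, and with the canonical transcript length CDH1 came out at 0.695 of CDH2, so their order depends on the length used. CDH13 and CDH4 were at 23.0 and 20.8 and at 22.3 and 21.4 TPM, above CDH1. The catenins that join cadherins to actin were expressed, CTNNA1 at 176 and 172 TPM and CTNNB1, β-catenin, at 43.8 and 36.6. The α-catenins of neurons and heart, CTNNA2 and CTNNA3, were at the floor.

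Tight junction genes were mostly expressed, 11 of 16 (68.75%) against 58.9% of all protein-coding genes, but at low levels. Their median was 3.78 TPM, and 1 was at the floor. F11R, the adhesion protein JAM-A, led at 53.5 and 64.5 TPM and TJP1, the scaffold ZO-1, was at 11.4 and 8.78. OCLN, occludin, had 10 and 5 counts, CGN, cingulin, had 0 and 5, and CGNL1 had 0 and 0. Of 24 claudins 6 were expressed, led by CLDN7 at 19.5 and 18.5 TPM, and 15 were at the floor. Gap junction genes were restricted, like the claudins: GJB5 was at 67.6 and 76.9 TPM and GJB2 at 15.3 and 13.6, whereas GJA1, connexin 43, had no count in either library. Of 21 connexin genes 6 were expressed.

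The surface proteoglycans and tetraspanins were high and nearly complete, with 17 of 18 genes expressed and GPC3, glypican 3, at the floor. CD63, a tetraspanin of late endosomes, at 496 and 479 TPM, and SDC1, syndecan 1, at 442 and 516, overlapped. CD44, the hyaluronan receptor, was at 122 and 118 TPM, and CD24, a luminal surface protein, was at 14.5 and 14.2.

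**Figure D2:**
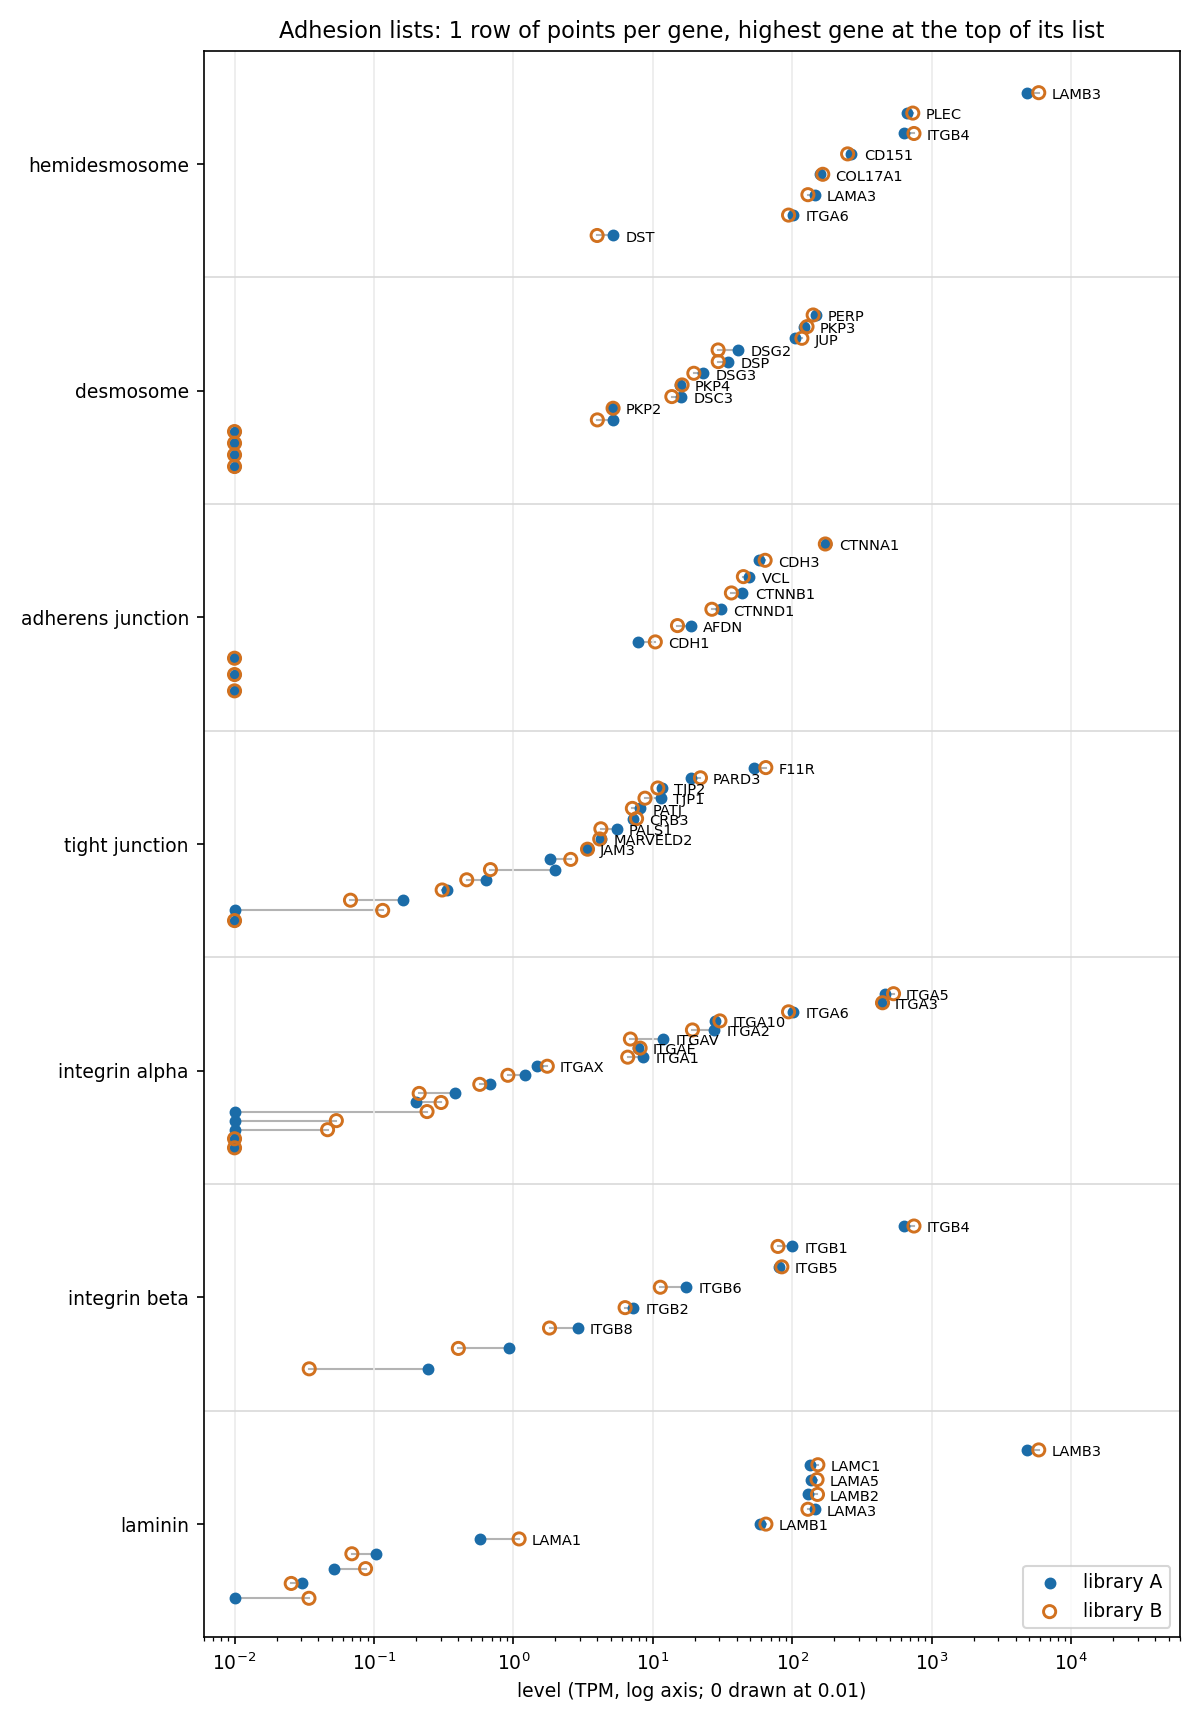
Level of the genes of 7 adhesion lists, 1 row of points per gene, on a log axis with 0 drawn at 0.01 TPM, and with up to the 9 highest genes of each list named where they reach 1 TPM; 1 gene is left out. LAMB3 lies far to the right of LAMA3, and the points of 4 desmosome genes lie at the left edge.

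In paralog families 1 gene often carried most of the message. Of 54 families with 192 genes, 145 genes were expressed and 31 were at the floor. Over all protein-coding genes 58.9% were expressed and 31.0% were at the floor. In 17 families the leading gene held 90% or more of the summed TPM, on the mean of the libraries, and in 13 it held under 60%. In 26 families every member was expressed, and in 7 only 1 was. In 3 families the ranges of the leading gene and the next overlapped.

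In the family of the transgene, HRAS (ENSG00000174775, chromosome 11, 532242 to 537321) was at 328 and 322 TPM. The transcripts of the introduced and of the endogenous gene cannot be told apart in counts per gene. NRAS was at 41.1 and 26.2 TPM, so HRAS exceeded it by 7.98 and 12.3 fold, by 21.9 fold with the canonical transcript length and by 5.44 fold in CPM. RRAS, a relative that acts on adhesion, was at 292 and 277 TPM. HRAS was 1.12 and 1.16 fold above RRAS on this scale, 2.32 fold with the canonical transcript length and 2.52 fold in CPM. Downstream, ARAF led the RAF kinases at 61.5 and 63.8 TPM, with BRAF at 1.86 and 1.55. MAP2K2 led MAP2K1, at 122 and 127 against 44.1 and 41.3 TPM. MAPK3, the kinase ERK1, was at 41.0 and 41.7 TPM.

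Transcription factor genes, some of them at the end of this pathway, had uneven levels of message within their families. FOSL1, the AP-1 protein FRA1, was at 479 and 458 TPM, 13.6 and 14.3 fold above FOS and 8.26 fold in CPM, and FOSB was at 1.57 and 1.27. Among its JUN partners, JUNB was at 226 and 238 TPM, JUND at 97.7 and 105 and JUN at 39.0 and 36.7. MYC was at 134 and 130.3 TPM, whereas MYCN had 0 and 2 counts. ID1, an inhibitor of basic helix-loop-helix factors, was at 1446 and 1536 TPM and made 96.9% and 97.0% of its family, and ID4 had no counts.

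Among growth factor receptors, EGFR, at 28.1 and 27.1 TPM, and ERBB2, at 27.0 and 27.6, overlapped, ERBB3 was at 1.89 and 2.90 and ERBB4 had no counts. TP73, a relative of TP63, was at 0.563 and 0.677 TPM. CDKN2A and CDKN2B, the genes of the cell cycle inhibitors p16 and p15, had no count in either library. Of 10 protein-coding genes counted between KLHL9 (163 and 142 counts) and ELAVL2 (103 and 70 counts) on chromosome 9, 7 were at the floor. Of these 7, 5 were interferon genes. MTAP, an enzyme of methionine salvage, had 2 and 7 counts. Noncoding genes of this stretch were left out. A missing and a silent locus cannot be told apart here. The other INK4 genes, CDKN2C and CDKN2D, were at 15.5 and 11.6 and at 9.55 and 14.0 CPM.

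Several glycolytic families had 1 dominant member. PKM, pyruvate kinase M, PGK1, phosphoglycerate kinase, ALDOA, aldolase A, and ENO1, enolase 1, each held 98.5% or more of their families. PKM was at 857 and 845 TPM, PGK1 at 239 and 199.6, ALDOA at 1337 and 1279 and ENO1 at 1613 and 1542. The liver gene PKLR and the testis gene PGK2 had no counts. The phosphofructokinases were more even, with PFKP at 194 and 189.8 TPM, PFKL at 55.5 and 50.8 and PFKM at 50.5 and 49.9, and PFKP held 64.7% and 65.3% of the family. HK1 led HK2, at 162 and 176 against 14.6 and 15.7 TPM. LDHB, at 859 and 856 TPM, stood above LDHA, at 673 and 639, but in CPM it came out at 0.647 of LDHA, so that order depends on length.

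Structural families differed in how far 1 member led. TMSB10 made 95.9% and 95.4% of the β-thymosins, ACTB stood 1.77 and 1.58 fold above ACTG1, and MYH9 made 94.9% and 95.4% of nonmuscle myosin II, with MYH14 at 0 counts. TPM2 led the tropomyosins at 410.2 and 397 TPM, with 68.5% and 70.1% of the family. EEF1A1 was at 2571 and 2564 TPM, while its muscle and neuron paralog EEF1A2 had 0 and 7 counts. RBM10, RBM6 and RBM5, the splicing regulators of the family that the study is about, were all expressed, RBM10 at 85.0 and 84.8 TPM, RBM6 at 27.1 and 26.9 and RBM5 at 16.7 and 14.5.

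Some genes that every cell uses were low, and several of these share exons with other genes. Of 84 ribosomal protein genes 82 were expressed, with a median of 759 TPM over all 84, and RPL3L and RPL10L, which are muscle and testis paralogs, were not. RPS10, however, was at 2.19 and 2.18 TPM and RPL17 at 7.40 and 7.86. Of their exon bases, 31.5% and 32.9% lie in exons of another gene of the table on the same strand. EIF4A1, a helicase of translation initiation, was at 3.80 and 3.14 TPM against 88.8 and 76.4 for EIF4A2, and shares 47.4% of its exon bases. RPL26 shares 14.5% and was at 33.8 and 43.0 TPM. The levels of these genes are therefore uncertain, and the part of shared exons in them was not tested. Other ribosomal protein genes were also low, such as RPL36A at 9.70 and 11.9 TPM and RPS23 at 50.4 and 62.4. Their shared exons are not given here. The share on the same strand was 0% for KRT5, KRT14, KRT17, KRT81, KRT19, HRAS, GJA1 and CDKN2B. Exons on the opposite strand are not part of this share, and whether the counts used strand is not given.

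Long noncoding RNAs made 1.65% and 1.51% of counts, and 812 of 14197 were expressed. MALAT1, a nuclear RNA of speckles, had 6780.0 and 5057 CPM and NEAT1, the scaffold of paraspeckles, had 1362 and 1577. MIR205HG, the host gene of miR-205, which is known from basal epithelium, had 629 and 807 CPM. The mature RNA was not measured in these libraries of long RNA. Its RefSeq sequence (chr1:209432166-209432187, plus strand) is printed with the seed, bases 2 to 8, in capitals because the host gene was abundant.
hsa-miR-205-5p: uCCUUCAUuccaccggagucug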

How the data were processed

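Total RNA of MCF10A-Hras cells was converted to TruSeq mRNA libraries and sequenced on a HiSeq instrument. The deposited table holds raw counts per Ensembl gene, which the authors left without normalization; the submitters' processing notes name hg38, STAR and DESeq2. The counting tool, the annotation and the use of strand are not given in the sources used here, so genes that overlap on opposite strands, such as MT-ND6 and its antisense transcripts, may share counts. All 8 columns were assigned to samples and only the 2 of untreated control cells were analysed. Their totals of 16122346 and 18754895 counts set the precision.

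CPM were computed on the total over genes. TPM used the union of exons in GENCODE v44, which lacks 841 of the 58233 identifiers (0.130% and 0.136% of counts). Libraries were scaled for alternatives with edgeR 4.0.16 (TMM) and DESeq2 1.42.0 in R 4.3.3, and exon overlaps came from bedtools 2.31.1; the dispersion estimate was tested on simulated data. With 1 group of 2 libraries no test was made. Genes were named as the 20 highest in TPM and in CPM, as members of lists and families, and as the 3 with the largest ratio between libraries in each direction; some genes of this selection are not reported here. The members and lists were chosen with earlier results of these data known, and the families of metallothioneins, EGF ligands, HMGA proteins and hair keratins after the values were seen. Alternatives changed the threshold, scaling and gene length, and left out each library. The canonical transcript length was added after the data were seen.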

Additional observations from a re-analysis of the deposited data

How the results depend on the processing

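The number of expressed genes ranged from 13447 to 14877 at 0.5 CPM, 10 counts, 1 TPM, TMM scaling or DESeq2 size factors, and was 21724 with any count in both libraries, where single reads suffice. With 1 library it was 13833 to 13915. The share of counts in the 10 most abundant genes, 10.1% on the mean, was 7.36% without mitochondrial genes and 25.3% of TPM, since the first removes the leading genes and the second divides by length. Of the 20 highest genes in TPM, 17 stayed with the longest or the canonical transcript as length and 12 with the median transcript length. Of 54 leading paralogs, 47 to 53 stayed under all alternatives of length, of CPM and of 1 library.

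Without mitochondrial genes in the total, KRT81 was at 19063 TPM on the mean, against 14362; this rescales all other genes of a library by 1 factor and leaves their ratios as they were. The length used changed ratios between genes. With the median transcript length, KRT81 was at 4893 TPM and KRT7 at 3770.3, LAMB3 at 2142 and LAMA3 at 372, ITGB4 at 1672, CDH3 at 224 and CDH1 at 19.6, MT2A at 16658, SNAI2 at 58.6, KRT5 at 1500.4 and RBM6 at 79.7. KRT81 stayed above KRT7, LAMB3 above LAMA3 and CDH3 above CDH1. AKT1 and AKT2, EGFR and ERBB2, LDHB and LDHA, HSP90AB1 and HSP90AA1, CDKN2D and CDKN2C, PIK3CD and PIK3CB, and the peroxiredoxins changed order under at least 1 alternative, as did TEAD4 and TEAD1, and RBM10 and RBM5. No paired analysis was possible because 1 group was described and no test was made. With 2 libraries the SD rests on 1 difference, and depth limits statements of absence to 3 counts per library.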

Other observations

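Transcripts of EGF receptor ligands were led by amphiregulin. AREG stood at 5214 and 5474 TPM and made 96.7% and 97.2% of the summed level of 11 ligand genes. EREG, epiregulin, was at 80.9 and 65.8 TPM, TGFA at 38.5 and 39.9, EPGN, epigen, at 28.4 and 23.7 and HBEGF, the heparin-binding ligand, at 17.0 and 21.7. EGF itself had 8 and 8 counts. Among the metallothioneins, MT2A made 92.6% and 93.8%, MT1E was at 2253 and 2143 TPM and 6 of 11 genes were at the floor. HMGA1, a chromatin protein of growing cells, was at 3644 and 3597 TPM and its relative HMGA2 at 43.4 and 35.7. These families were picked after their values were seen.

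Position-related and secreted families were also partly expressed. Of 39 HOX genes 15 were expressed, 6 of 11 in the A cluster, 4 of 10 in B, 5 of 9 in C and none of the 9 in D, where all 9 were at the floor. HOXA5 led at 55.0 and 43.3 TPM, before HOXC9 at 33.9 and 33.6. MMP14, a membrane-bound collagenase activator, made 89.3% and 87.2% of the summed level of 23 matrix metalloproteinase genes, at 521 and 481 TPM, while MMP1 had 0 and 4 counts, MMP3 had 1 and 1 and MMP7 had none. TIMP1, an inhibitor of these enzymes, was at 2325 and 2681 TPM and TIMP4 had no counts. IGFBP6, which binds IGF2, was at 918 and 972 TPM, IGFBP3 at 0.675 and 1.10, and IGFBP5 had no counts. WNT5A, a noncanonical WNT ligand, was at 46.2 and 30.5 TPM, above WNT10B at 6.56 and 6.46. LGALS1, galectin 1, made 94.4% and 94.1% of 14 galectin genes. EPHA2, an ephrin receptor of epithelium, was at 163 and 177 TPM and SOX15 led the SOX genes at 76.9 and 79.8, while SOX2 and SOX10 had no counts.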
